A study of Homo sapiens with 8 samples.

Results

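The transcripts of 10 chemokine genes that carcinoma cells can make (CXCL1, CXCL2, CXCL3, CXCL5, CXCL6, CXCL8, CXCL16, CCL20, CCL2 and CX3CL1) were examined in CFPAC-1 cells, a long-used human line that was derived from a ductal adenocarcinoma of the pancreas. The members were taken by gene symbol, and all 10 were found among the 58870 genes of the table. RNA sequencing covered 8 libraries, 4 from cells with an empty vector and 4 from cells overexpressing an ADRA2A transgene. ADRA2A encodes the alpha-2A adrenergic receptor, which couples to Gi and lowers cyclic AMP. All cells were grown for 72 hours in IMDM with serum and antibiotics, and no drug or receptor agonist was added to either group. The labels give neither the promoter that drives the transgene nor whether each group is a pool or a single clone, and they do not say that the 4 samples of a group were separate cultures, so each p-value measures only the spread between these samples, which may be technical.

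Chemokines are small secreted or membrane-bound proteins that attract leukocytes through G protein-coupled receptors. CXCL1, CXCL2, CXCL3, CXCL5, CXCL6 and CXCL8 form a gene cluster, share the ELR motif and act on CXCR2, the receptor by which neutrophils are drawn in, and CXCL6 and CXCL8 also act on CXCR1. CXCL16 and CX3CL1 are made as transmembrane proteins that can be shed by ADAM proteases, and they act on CXCR6 and CX3CR1 of T cells, natural killer cells and monocytes. CCL20 attracts CCR6-bearing T cells and dendritic cells, and CCL2 attracts CCR2-bearing monocytes. In pancreatic cancer such ligands are known for recruiting myeloid cells to the tumour, and inflammatory cytokines induce most of them through NF-kappaB.

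The promoters of the clustered CXCL genes were read first, because they share an NF-kappaB type site, while some of these genes were called lower and others were not. Promoter entries of RefSeq (GRCh38.p14, 250 bases before to 50 bases after the start) were found for 7 of the 10 members, without CXCL16, CX3CL1 and CCL2. The 9-base motif GGAATTTCC, searched on both strands, was present once in each of the 6 clustered CXCL promoters and absent from that of CCL20. Of all 35116 promoters of this length, 0.461% held it. The site was picked because the clustered promoters share it, so this percentage does not measure enrichment. The stretches below run 5′ to 3′ on the gene's strand within the 150 bases before the RefSeq start. They are shown without any base that GENCODE places in the gene, and capitals mark the motif. CXCL3 is not shown, because its motif reaches into the gene as GENCODE places it.
CXCL1, chr4:73869243-73869392, plus strand: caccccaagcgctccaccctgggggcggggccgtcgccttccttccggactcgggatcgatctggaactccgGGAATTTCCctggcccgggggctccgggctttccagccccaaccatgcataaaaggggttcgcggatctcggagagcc
CXCL2, chr4:74099197-74099345, minus strand: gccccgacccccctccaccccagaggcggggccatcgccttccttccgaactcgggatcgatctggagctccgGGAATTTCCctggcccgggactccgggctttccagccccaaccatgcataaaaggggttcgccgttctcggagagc
CXCL5, chr4:73998678-73998827, minus strand: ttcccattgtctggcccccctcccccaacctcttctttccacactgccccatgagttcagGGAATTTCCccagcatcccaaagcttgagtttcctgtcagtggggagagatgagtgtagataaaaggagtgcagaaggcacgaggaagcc
CXCL6, chr4:73836528-73836639, plus strand: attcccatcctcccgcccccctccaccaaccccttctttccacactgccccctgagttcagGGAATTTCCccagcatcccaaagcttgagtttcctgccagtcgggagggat
CXCL8, chr4:73740419-73740518, plus strand: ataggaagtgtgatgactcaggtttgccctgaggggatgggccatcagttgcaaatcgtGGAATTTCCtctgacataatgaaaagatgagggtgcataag

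The motif began 78 bases before the start in CXCL1 and CXCL3, 77 in CXCL2, 90 in CXCL5, 89 in CXCL6 and 91 in CXCL8. Over the 150 bases before the start, 135 bases (90.0%) were identical between CXCL5 and CXCL6 in a global alignment. Among CXCL1, CXCL2 and CXCL3, 130 to 134 bases (86.7% to 89.3%) were identical. These bases run to the RefSeq start and, in CXCL2, CXCL3, CXCL6 and CXCL8, reach into the gene as GENCODE places it. CXCL8 stood apart, with 47.3% to 51.3% identity to the others. It alone of the 6 had a match to the AP-1 motif TGANTCA, which began 137 bases before its start and is held by 7.71% of all promoters. The C/EBP motif TTGCNNAA (10.5% of all promoters) was found in CXCL2, 188 bases before the start. The cyclic AMP response element TGACGTCA (1.85% of all promoters) was found in none of the 7. A match is a string of letters in this window and does not show binding. The lack of an exact match does not show that a gene has no such site.

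Libraries held between 14427040 and 17528910 estimated counts. The transgene had 0 counts in every empty-vector library, where a count of 0 allows up to 3 counts per library, and 112, 142, 154 and 172 counts in the ADRA2A libraries. Of 8 epithelial carcinoma markers, 7 stood at 1 CPM (counts scaled to a common library size, with TMM factors) or more in all libraries, with a summed level of 11983 to 12556 CPM with the empty vector and 11929 to 12983 CPM with ADRA2A. The exception was CFTR, with 4 to 20 counts. The sum hides changes in both directions. Of 7 epithelial markers tested, 3 were higher and 3 lower at an adjusted p under 0.05 in edgeR, with log2 fold changes from -0.43 to 0.79. Over all genes tested, the shares were 21.6% higher and 21.1% lower. Of 8 leukocyte markers, 2 reached 1 CPM in all libraries, and the sum was 90.6 to 96.8 CPM with the empty vector and 110.2 to 121 CPM with ADRA2A. Nearly all of it was CD68, a lysosomal protein that many cell types make, and the other 7 summed to 2.004 to 2.91 CPM, with CD3E at 0 throughout and at most 4 counts of PTPRC. The fibroblast sum was 78.2 to 82.6 CPM with the empty vector and 23.95 to 26.4 CPM with ADRA2A, of which all but 1.18 to 2.55 CPM was COL1A1. The 5 endothelial markers summed to 2.05 to 2.71 CPM with the empty vector and 2.64 to 3.35 CPM with ADRA2A. Of the 2 tested, 1 was higher and 1 lower. The sums led by CD68 and COL1A1 did not overlap between the groups, and their part in the chemokine results was not tested.

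Of the 10 chemokine genes, 8 passed the filter on low counts and were tested. CXCL5 and CXCL8 fell, CXCL16 rose, and CXCL1, CXCL2, CXCL3, CXCL6 and CX3CL1 did not pass the test. The 3 called genes (1 higher and 2 lower at a Benjamini-Hochberg adjusted p under 0.05 in edgeR's quasi-likelihood test) stand beside a background of 6314 of 14785 genes called, or 42.7% of those tested, with 21.6% higher and 21.1% lower under ADRA2A. The share of chemokine genes called was thus near that of all genes. The median log2 fold change was -0.096 over the 8 genes and 0.000621 over all genes tested, and the median absolute value was 0.19 and 0.18. For these 3 genes every library of one group lay above every library of the other, which also held for 39.2% of all genes tested. In bulk RNA a lower level in every cell and fewer cells that express a gene cannot be told apart.

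**Figure D1:**
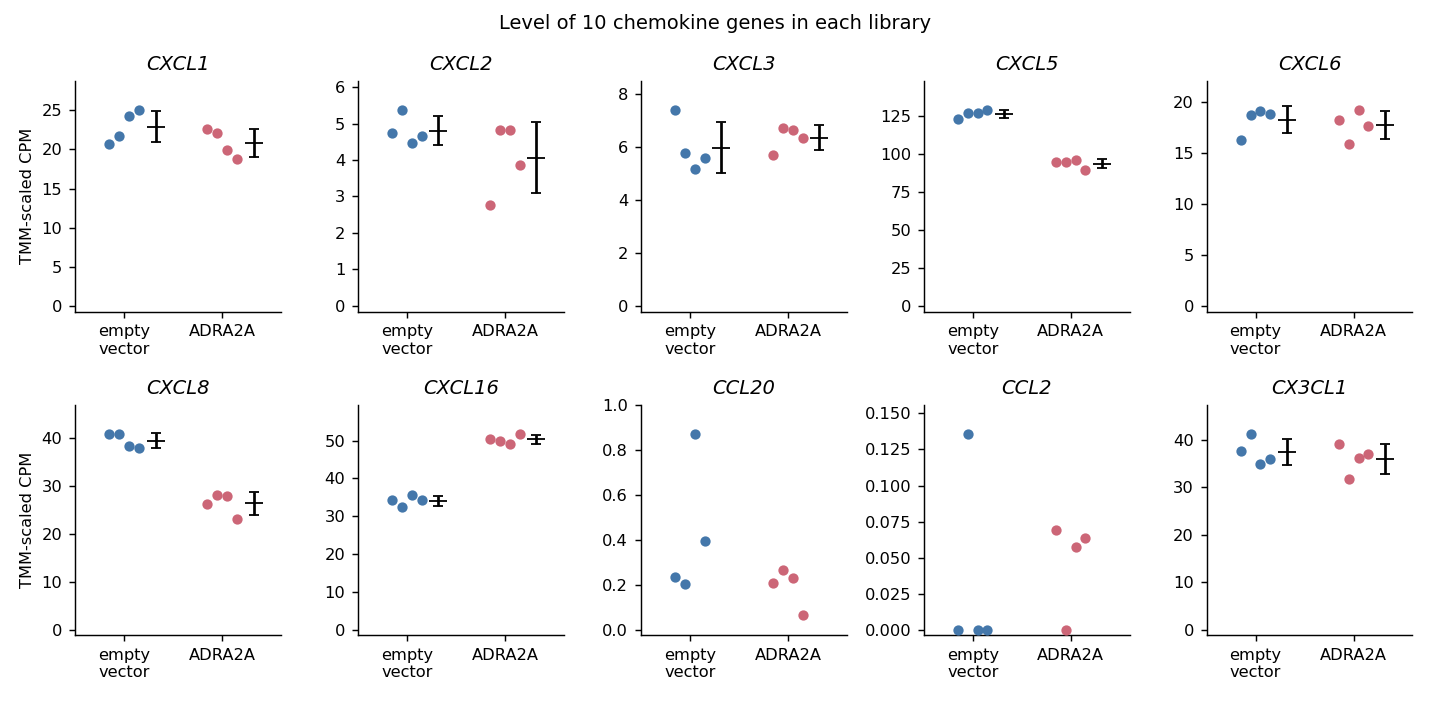
TMM-scaled CPM of each of the 10 chemokine genes (vertical axes, each from 0) in the 4 empty-vector libraries (blue) and the 4 ADRA2A libraries (red), with the mean and SD in black for the 8 genes tested. The groups separate for CXCL5, CXCL8 and CXCL16 and overlap for the other genes.

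CXCL5, the most abundant of the CXCR2 ligands in these cells, fell. Its level was 123, 127, 127 and 129 CPM in empty-vector replicates 1 to 4 and 94.6, 94.8, 95.9 and 89.2 CPM in ADRA2A replicates 1 to 4. The empty-vector libraries lay close together and all above the ADRA2A libraries. The mean went from 126 ± 2.43 to 93.6 ± 3.01 CPM (SD, n = 4 each), or 0.741 times the control level. The log2 fold change was -0.43 ± 0.039 (SE), with a 95% confidence interval of -0.51 to -0.35 and an edgeR adjusted p of 3.01e-08. CXCL5 (ENSG00000163735.7) lies on chromosome 4, 73995642 to 73998677, minus strand of GRCh38.

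CXCL8, which encodes interleukin 8, the classic neutrophil attractant, fell by a larger point estimate. It stood at 40.9, 40.8, 38.3 and 37.96 CPM in the empty-vector libraries and 26.2, 28.2, 28.001 and 23.1 CPM in the ADRA2A libraries. No ADRA2A library reached the lowest empty-vector library. The mean went from 39.5 ± 1.57 to 26.4 ± 2.36 CPM (SD, n = 4 each), 0.668 times the control level, with a log2 fold change of -0.58 ± 0.066 (SE; 95% confidence interval -0.72 to -0.44; edgeR adjusted p = 5.71e-07). The intervals of CXCL5 and CXCL8 overlapped, and the ratio of CXCL8 to CXCL5 counts, 0.295 to 0.332 in the empty-vector libraries and 0.259 to 0.297 in the ADRA2A libraries, overlapped between the groups. CXCL8 (ENSG00000169429.11) is the first gene of the cluster, on chromosome 4, 73740519 to 73743716, plus strand.

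The near-identical paralogs CXCL1, CXCL2 and CXCL3 are also ligands of CXCR2. CXCL1 stood at 20.7, 21.7, 24.2 and 25.002 CPM with the empty vector and 22.6, 22.1, 19.9 and 18.8 CPM with ADRA2A, and the groups overlapped. Its log2 fold change of -0.14 ± 0.081 (SE) did not pass the test (95% confidence interval -0.31 to 0.032; edgeR adjusted p = 0.184). This interval holds falls of up to 0.31 on the log2 scale and does not reach the estimate for CXCL5.
CXCL2 stood at 4.74, 5.36, 4.47 and 4.65 CPM and 2.77, 4.82, 4.81 and 3.86 CPM in the same order. ADRA2A replicate 1 was the lowest of the 8 libraries, and the other 3 ADRA2A libraries reached from 3.86 to 4.82 CPM. With 40 to 84 counts per library, its log2 fold change of -0.23 ± 0.17 (SE) has a wide 95% interval of -0.596 to 0.13 (edgeR adjusted p = 0.301), which includes the change seen in CXCL5. Without ADRA2A replicate 1 the log2 fold change was -0.092.
CXCL3 stood at 7.38, 5.77, 5.17 and 5.56 CPM and 5.67, 6.73, 6.64 and 6.32 CPM, with the highest value in empty-vector replicate 1. Its log2 fold change was 0.087 ± 0.14 (SE; 95% confidence interval -0.198 to 0.37; edgeR adjusted p = 0.639), and it was 0.21 without empty-vector replicate 1 and 0.020 without empty-vector replicate 3. RSEM can divide reads among such paralogs, which can make their separate values uncertain. The estimated counts of CXCL1, CXCL2 and CXCL3 were whole numbers in all 8 libraries, while 4.61% to 4.90% of all entries of a library had decimals. How reads were assigned among these genes was not tested. The sum of CXCL1, CXCL2 and CXCL3 was 33.7 ± 1.12 CPM with the empty vector and 31.3 ± 1.92 CPM with ADRA2A (SD, n = 4 each), and the groups overlapped.

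CXCL6, the closest relative of CXCL5 in promoter sequence, did not pass the test. It stood at 16.3, 18.7, 19.1 and 18.9 CPM in the empty-vector libraries and 18.2, 15.9, 19.2 and 17.6 CPM in the ADRA2A libraries. The lowest value of both groups was in ADRA2A replicate 2, next to empty-vector replicate 1. With a log2 fold change of -0.038 ± 0.082 (SE), edgeR gave an adjusted p of 0.7397 and a 95% confidence interval of -0.21 to 0.13 that does not reach the interval of CXCL5. Its sign turned when ADRA2A replicate 2 was left out, to a log2 fold change of 0.011.

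Ratios of counts within a library do not depend on how libraries are scaled. The ratio of CXCL5 to CXCL6 was 6.65 to 7.55 in the empty-vector libraries and 4.997 to 5.96 in the ADRA2A libraries. The ratio of CXCL8 to CXCL6 was 2.003 to 2.51 in the empty-vector libraries and 1.31 to 1.77 in the ADRA2A libraries. Both ratios separated the groups without overlap, as did the ratio of CXCL5 to CXCL1 (5.15 to 5.93 in the empty-vector libraries and 4.18 to 4.81 in the ADRA2A libraries) and that of CXCL8 to CXCL1 (1.52 to 1.97 in the empty-vector libraries and 1.16 to 1.41 in the ADRA2A libraries). These pairs were picked after the values were seen, and the ratios were not tested. The motif GGAATTTCC stood in the promoters of the genes that were called lower and of those that were not.

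**Figure D2:**
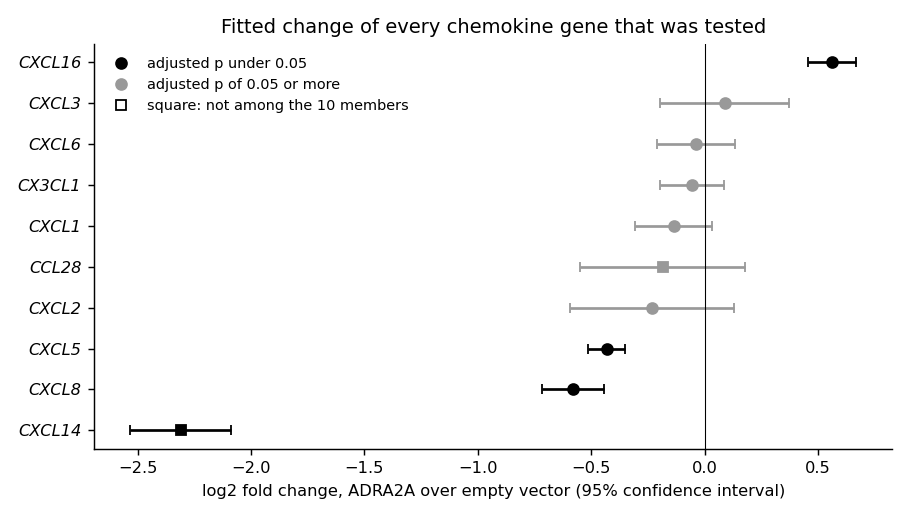
Fitted log2 fold change (horizontal axis, ADRA2A over empty vector) with its 95% confidence interval for the 10 chemokine genes of any kind that were tested, circles for the members and squares for CXCL14 and CCL28. The intervals of CXCL14, CXCL8 and CXCL5 lie below 0, that of CXCL16 lies above 0, and the others include 0.

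Of the membrane-anchored chemokines, CXCL16 rose and CX3CL1 did not pass the test. CXCL16, the ligand of CXCR6 and a scavenger receptor for oxidised lipoprotein, stood at 34.2, 32.3, 35.5 and 34.3 CPM with the empty vector and 50.5, 49.9, 49.1 and 51.7 CPM with ADRA2A. Every ADRA2A library lay well above the highest empty-vector library. The mean rose from 34.1 ± 1.32 to 50.3 ± 1.103 CPM (SD, n = 4 each), 1.48 times the control level, with a log2 fold change of 0.56 ± 0.051 (SE; 95% confidence interval 0.45 to 0.67; edgeR adjusted p = 2.75e-08). CXCL16 (ENSG00000161921.15) lies on chromosome 17, 4733533 to 4739928, minus strand. Its annotated span shares 96 bases with ZMYND15 and 76 bases with MED11, both on the plus strand, and the use of strand in counting is not given in the sources used here. ZMYND15 went from 1.02 to 2.25 CPM and was called higher (log2 fold change 1.151; edgeR adjusted p = 0.00254). MED11 went from 7.20 to 8.75 CPM with groups that did not overlap and did not pass the test (log2 fold change 0.28; edgeR adjusted p = 0.0546). Both moved in the direction of CXCL16, and the part of reads from these genes in its value was not tested.
CX3CL1, or fractalkine, stood at 37.7, 41.2, 34.8 and 35.998 CPM and 39.1, 31.7, 36.2 and 36.9 CPM, with overlapping groups. Its log2 fold change was -0.055 ± 0.068 (SE; 95% confidence interval -0.197 to 0.087; edgeR adjusted p = 0.547), and it was 0.0017 without ADRA2A replicate 2. The ratio of CXCL16 to CX3CL1 counts was 0.784 to 1.02 in the empty-vector libraries and 1.29 to 1.57 in the ADRA2A libraries.

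The CC chemokines were scarce and not tested. CCL20 had 4, 3, 15 and 6 counts in the empty-vector libraries and 3, 4, 4 and 1 counts in the ADRA2A libraries, where a count of 0 would allow 3 counts. The 15 counts of empty-vector replicate 3 exceeded all other libraries. Without it the difference in mean CPM between the groups went from -0.235 to -0.0859, and the empty-vector level from 0.267 to 0.174 CPM per kb. In a fit without the filter, the log2 fold change was -1.14 with an SE of 0.68, and so few counts did not allow a difference to be detected (edgeR adjusted p = 0.239). CCL2 had 0, 2, 0 and 0 counts and 1, 0, 1 and 1 counts, all within that limit, so no fold is given.

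Levels of different genes were set side by side per kilobase of merged exons annotated in GENCODE, a scale that understates genes with long rare isoforms. CXCL5 led in both groups, with 51.9 ± 0.999 CPM per kb with the empty vector and 38.4 ± 1.23 with ADRA2A (SD, n = 4 each). In the empty-vector cells CXCL1 (16.8 ± 1.49 CPM per kb) and CXCL8 (15.3 ± 0.606) came next and did not differ beyond their spread, followed by CXCL16 (12.2 ± 0.472), CXCL6 (8.94 ± 0.646), CX3CL1 (6.28 ± 0.467), CXCL2 (3.44 ± 0.276) and CXCL3 (2.69 ± 0.438). CCL20 and CCL2 stood at 0.267 and 0.0175 CPM per kb. In the ADRA2A cells CXCL16 (18.02 ± 0.395 CPM per kb) was second, ahead of CXCL1 (15.3 ± 1.33) and CXCL8 (10.2 ± 0.913). CXCL2 and CXCL3 did not differ beyond their spread there, with 2.91 ± 0.697 and 2.86 ± 0.216 CPM per kb. As a share of the summed per-length level of the 8 tested genes, CXCL5 went from 44.1% ± 0.134 to 37.5% ± 0.209, CXCL8 from 12.99% ± 0.694 to 9.93% ± 0.6604 and CXCL16 from 10.4% ± 0.428 to 17.6% ± 0.862 (SD, n = 4 each). The summed CPM of the 6 CXCR2 ligands, not scaled by length, went from 218 ± 3.37 to 169 ± 6.97. Within it CXCL5 went from 126 to 93.6 CPM and CXCL8 from 39.5 to 26.4 CPM. CXCL1, CXCL2, CXCL3 and CXCL6 did not pass the test, so the sum does not show a fall of each ligand.

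**Figure D3:**
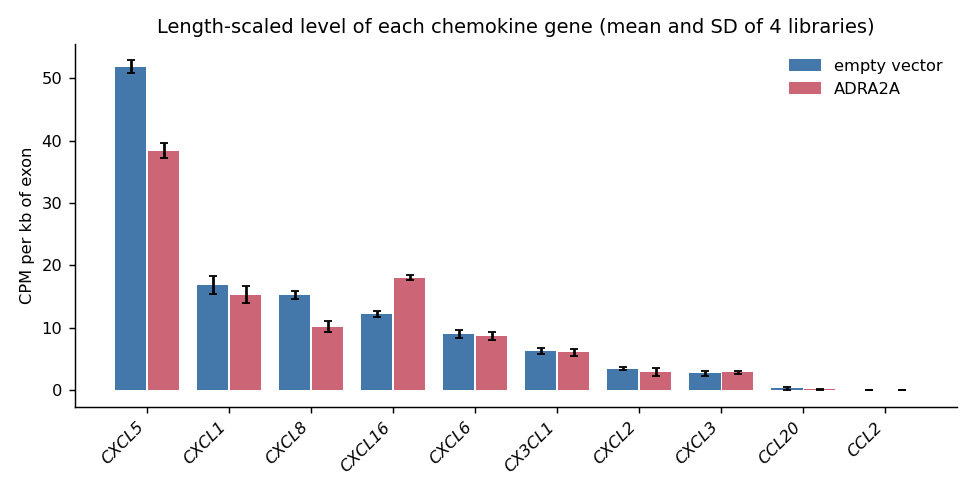
Mean level of each chemokine gene in CPM per kilobase of merged annotated exon (vertical axis, from 0) with the SD of 4 libraries, empty vector in blue and ADRA2A in red, ordered by the empty-vector level. CXCL5 is the tallest in both groups, and CXCL16 passes CXCL1 and CXCL8 in the ADRA2A cells.

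The surroundings of the CXCL cluster on chromosome 4 were examined next. The 6 genes span 73740519 to 74099196 of GRCh38, and 16 other tested genes lay within 2 Mb of its ends. Of these, 9 passed the test as lower and 1 as higher, where 21.1% of all genes tested were lower and 21.6% higher. The median log2 fold change of the 16 was -0.18. Past the CXCL2 end, the EGF family ligand genes EREG (252 to 136 CPM), AREG (96.3 to 50.8 CPM) and BTC (13.02 to 8.87 CPM) had log2 fold changes of -0.89, -0.92 and -0.55 (edgeR adjusted p = 1.04e-12, 1.35e-10 and 2.18e-04). MTHFD2L, a folate enzyme gene between CXCL2 and EREG, had overlapping groups and a log2 fold change of -0.35 (edgeR adjusted p = 0.0255). On the CXCL8 side the nearest tested gene, RASSF6, rose with a log2 fold change of 0.49 (adjusted p = 1.26e-06), the single higher gene of the 10 called. Farther out on that side, the protease gene ADAMTS3 went from 13.4 to 9.21 CPM and the neuropeptide receptor gene NPFFR2 from 2.18 to 0.897 CPM, with log2 fold changes of -0.54 and -1.25 (edgeR adjusted p = 5.44e-05 and 0.00454). Whether the region has a part in the results for CXCL5 and CXCL8 was not tested. Within 1 Mb of CXCL16, 10 of 40 tested genes were higher and 7 lower, with a median of 0.011. Around CX3CL1 6 of 36 were higher and 16 lower, with a median of -0.11. The same shares of all genes tested, 21.6% higher and 21.1% lower, stand beside these counts.

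**Figure D4:**
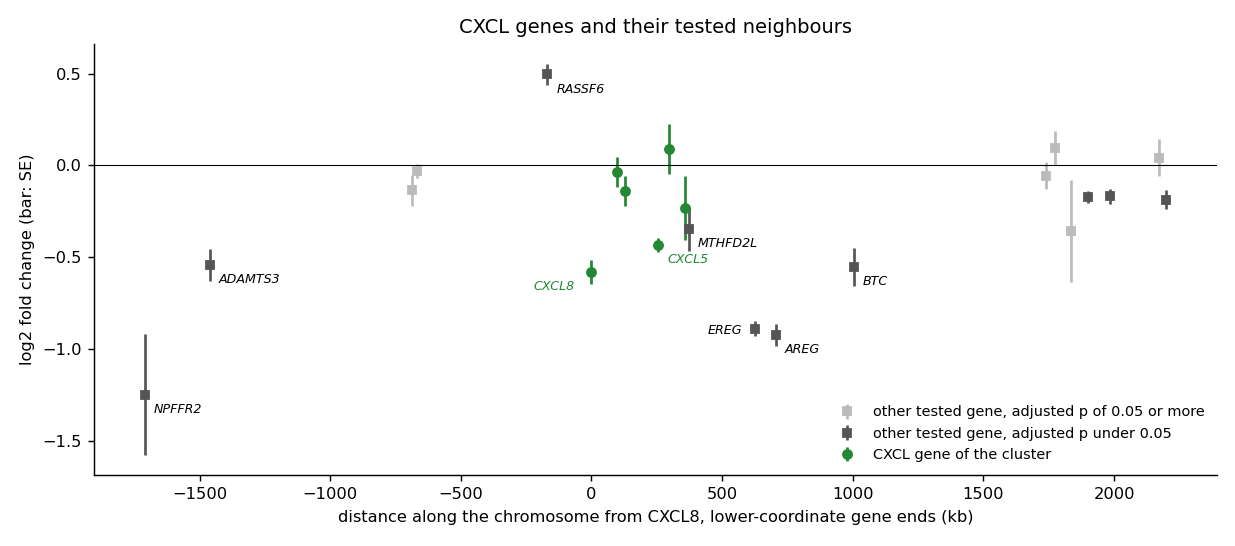
Log2 fold change (vertical axis, bars are SE) of the 6 CXCL genes (green) and the 16 other tested genes within 2 Mb (squares, dark where the adjusted p is under 0.05) against distance along the chromosome from CXCL8 in kb. EREG and AREG lie lowest past the cluster, CXCL8 and CXCL5 lie below 0, and RASSF6 lies above 0.

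Among the other 34 chemokine ligand genes, 17 had 0 counts in all 8 libraries, 15 more had at most 13 counts in any library, and 2 were tested. CXCL14, a chemokine of epithelia, fell, and its interval lay below those of CXCL5 and CXCL8. It stood at 22.02, 28.6, 25.9 and 23.6 CPM with the empty vector and 5.05, 4.29, 5.55 and 5.19 CPM with ADRA2A. All ADRA2A libraries were far below all empty-vector libraries. Its log2 fold change was -2.31 ± 0.11 (SE; 95% confidence interval -2.53 to -2.09; edgeR adjusted p = 1.31e-12), or 0.201 times the control level. CXCL14 lies on chromosome 5, 135570679 to 135579279, minus strand, away from the cluster. CCL28, a mucosal ligand of CCR10, had 3.94 ± 0.103 and 3.47 ± 0.619 CPM (SD, n = 4 each) and did not pass the test (log2 fold change -0.19 ± 0.17, SE; edgeR adjusted p = 0.418).

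The receptors of the members were hardly detected in these cells. CXCR1, CXCR2, CXCR6 and CCR2 had 0 counts in all libraries, CX3CR1 at most 1 and CCR6 at most 2, where a count of 0 allows 3 counts per library. Of 23 chemokine receptor genes 3 were tested, and 2 of them, named after their values were seen, were higher, as were 21.6% of all genes tested. ACKR4, a scavenging receptor that takes up CC chemokines, rose from 1.2002 ± 0.378 to 3.66 ± 0.758 CPM (SD, n = 4 each; log2 fold change 1.599 ± 0.25, SE; edgeR adjusted p = 3.47e-05). CCR1 rose from 1.13 ± 0.353 to 2.14 ± 0.6297 CPM with an adjusted p of 0.0154. 1 receptor was called without empty-vector replicate 4 and 1 without ADRA2A replicate 3.

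The cytokine inducers of these chemokines and their receptors moved in both directions. Of 30 genes 23 were tested, 7 higher and 8 lower, with a median log2 fold change of 0.105. Among all genes tested, 21.6% were higher and 21.1% lower. IL1B and TNF had at most 1 and 3 counts in a library. IL1R1, the signalling receptor of interleukin 1, rose from 60.9 ± 3.78 to 93.97 ± 4.86 CPM (SD, n = 4 each; log2 fold change 0.63 ± 0.051; edgeR adjusted p = 6.26e-09). TLR4, the lipopolysaccharide receptor, fell from 12.97 ± 0.766 to 6.16 ± 0.698 CPM (log2 fold change -1.07 ± 0.11; adjusted p = 8.98e-08). TLR6 and IRAK2, a kinase of the same signalling route, fell with log2 fold changes of -0.58 and -0.498.

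All 19 NF-kappaB subunit, kinase and feedback genes were tested, with 2 higher, 9 lower and a median log2 fold change of -0.14. Over the 14785 genes in the fit, edgeR called 21.6% higher and 21.1% lower. Whether this list departs from these shares was not tested. NFKBIZ, which encodes a nuclear NF-kappaB cofactor, rose from 119 ± 11.9 to 244 ± 17.9 CPM (SD, n = 4 each; log2 fold change 1.04 ± 0.061; edgeR adjusted p = 4.38e-11). TNFAIP3, the feedback inhibitor A20, fell from 37.5 ± 5.13 to 24.8 ± 1.77 CPM (log2 fold change -0.599 ± 0.083; adjusted p = 7.60e-06). The subunit RELB and the inhibitor NFKBIE fell by 0.45 and 0.44 on the log2 scale. RELA and NFKB1, which form the main dimer, did not pass the test, with log2 fold changes of -0.041 and -0.11; they were picked after their values were seen.

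Of 12 AP-1 and C/EBP factors 11 were tested, with 3 higher, 3 lower and a median log2 fold change of -0.00351. The background over all genes tested was 21.6% higher and 21.1% lower. FOS rose from 11.4 ± 0.912 to 41.3 ± 5.13 CPM (SD, n = 4 each; log2 fold change 1.86 ± 0.089; edgeR adjusted p = 2.23e-12) and JUNB by a log2 fold change of 0.64. FOSL1, which encodes Fra-1, fell from 253 ± 11.7 to 169.8 ± 8.29 CPM (log2 fold change -0.58 ± 0.042; adjusted p = 1.12e-09), and CEBPG fell by 0.35 on the log2 scale. The AP-1 motif was present in the CXCL8 promoter, and a link between these factors and the level of CXCL8 was not tested.

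Factors that govern the stability of chemokine messages, many of which carry AU-rich elements, were all tested. Of these 11 genes, 3 were higher and 5 lower, with a median of -0.14. These counts stand beside 21.6% higher and 21.1% lower among all genes tested. ZFP36, or tristetraprolin, which promotes the decay of such messages, rose from 32.2 ± 2.47 to 43.2 ± 3.06 CPM (SD, n = 4 each; log2 fold change 0.43 ± 0.065; edgeR adjusted p = 2.23e-05). Its relative ZFP36L1 rose by a log2 fold change of 0.28. ARID5A, which stabilises some of them, and HNRNPD had -0.497 and -0.26, both past the threshold.

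Of 10 sheddases and trimming proteases 7 were tested, 3 higher and 0 lower at that threshold, with a median log2 fold change of 0.028. For comparison, edgeR called 21.6% of the 14785 genes in the fit higher and 21.1% lower. Whether 0 lower among 7 genes departs from these shares was not tested. None of the 7 was lower at an unadjusted p under 0.05 in edgeR, and DESeq2 and limma voom also called 0 lower. ADAM10 and ADAM17, the proteases that shed CXCL16 and CX3CL1, rose from 236 ± 7.76 to 276 ± 3.04 CPM and from 63.9 ± 2.94 to 74.5 ± 2.54 CPM (SD, n = 4 each; log2 fold changes 0.22 ± 0.034 and 0.22 ± 0.047, SE; edgeR adjusted p = 2.49e-05 and 6.75e-04). RHBDF1, which encodes the iRhom1 partner of ADAM17, rose by a log2 fold change of 0.18. Shedding itself was not measured.

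**Figure D5:**
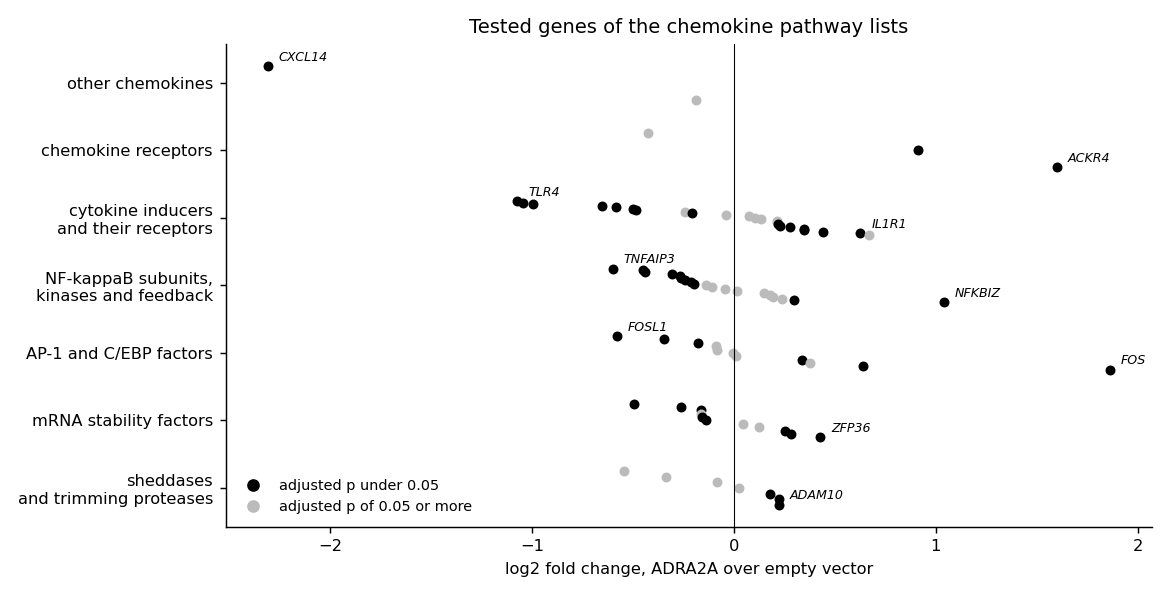
Log2 fold change (horizontal axis, ADRA2A over empty vector) of every tested gene of the 7 pathway lists (rows), black where the adjusted p is under 0.05 and grey otherwise. CXCL14 lies farthest to the left and FOS farthest to the right, and the cytokine and NF-kappaB lists hold called genes on both sides of 0.

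Genes that tracked CXCL16 and CXCL5 most closely were found by the root mean square difference of log2 CPM, each gene centred on its mean over the 8 libraries, among 10380 genes whose higher group averaged 10 CPM or more. Nearest to CXCL16 were ID2 (0.0341), LRRC41 (0.0436), PODXL (0.04404), VWA1 (0.0453) and TMEM167B (0.0514), with the difference in log2 units in brackets. Nearest to CXCL5 were KRT80 (0.0227), OCIAD2 (0.0238), SNX5 (0.0244), NAP1L1 (0.0278) and AURKA (0.0281). The measure keeps the difference between the groups, so it picks genes whose fold change is like that of the member. Their log2 fold changes were 0.50 to 0.56 for the genes near CXCL16 and -0.46 to -0.40 for those near CXCL5. Whether they vary with the chemokine apart from the group difference was not tested.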

How the data were processed

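RNA of 8 CFPAC-1 samples (4 empty vector, 4 ADRA2A) was, per the labels' protocols, isolated with TRIzol and read on a NextSeq instrument. The authors deposited each gene's expected count (an estimated count from RSEM, not scaled), and the submitters' processing notes name cutadapt, STAR, RSEM, DESeq2 and hg38 with no version or role. The annotation, read length and use of strand are not given in the sources used here. Between 4.61% and 4.90% of the entries of a library had decimals, and counts were rounded. Genes passing filterByExpr (14785) were tested with edgeR 4.0.16 (quasi-likelihood, group as the single term, TMM factors 0.9938 to 1.006) with Benjamini-Hochberg adjustment over all of them. Standard errors are the absolute log2 fold change over the square root of F. Positions and exon lengths come from GENCODE 44 on GRCh38, matched by Ensembl ID for 99.4% of genes. Library totals of 14427040 to 17528910 set the counting precision. The intervals of 95% come from the fit. Alternatives were DESeq2 1.42.0, RLE and upper quartile factors, limma 3.58.1 voom, 2 filters, a replicate block and leaving out each library. The procedure was tested on simulated data. Members and lists were chosen with earlier results of these data known. All members were named, and of each list up to 4 called genes with the largest change whose higher group averaged 5 CPM or more. Other names were chosen after their values were seen.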

Additional observations from a re-analysis of the deposited data

Results flagged for a closer look

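2 of the 22 sets of 4 values checked held a library that stood apart, measured as its gap to the nearest of the others over the whole range of the group (Dixon's ratio), against the critical value at 95%. Chance alone gives about 1 in 20 such sets. For CXCL6 in the empty-vector libraries the ratio was 0.865: replicate 1 had 16.3 CPM, and the other replicates had 18.7 to 19.1 CPM. For CCL2 in the empty-vector libraries the ratio was 1, which rests on 2 counts in replicate 2 and 0 in the other replicates.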

How the results depend on the processing

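Of 280 alternative values for the results with a call or a count, 275 kept their direction and their side of the threshold, or stayed within 1.5 times the count. Over 15 alternatives each, the log2 fold changes of the called members lay from -0.45 to -0.41 for CXCL5, -0.61 to -0.52 for CXCL8 and 0.54 to 0.58 for CXCL16, and 3 members were called in every one. The exceptions were small values. With 1 library left out at a time, the log2 fold change of CXCL6 lay between -0.091 and 0.011 and that of CX3CL1 between -0.094 and 0.0017, both turning positive without ADRA2A replicate 2 only. The uncalled values of CXCL1 (-0.185 to -0.090), CXCL2 (-0.33 to -0.092) and CXCL3 (0.020 to 0.21) kept their sign but moved by over 1.5 times. The count of chemokine receptors called was 2, fell to 0 with a filter at a mean of 50 counts, under which none of the 23 was tested, and lay between 1 and 2 when 1 library was left out. The replicate numbers were shared by the groups, but deviations of same-numbered libraries correlated by only -0.030 to 0.072, and 1 of 8 libraries correlated best with its own number, so they were not treated as pairs. With the replicate number as a block, 6400 genes were called in place of 6314, and the member calls were unchanged at 3. The 220 alternative values of per-length levels and of the CPM differences of CCL20 and CCL2 moved by less than 1 SD, but for these 2 genes the SD of the empty-vector group rests largely on 1 library. With 1 library left out, the difference in mean CPM lay between -0.308 and -0.0859 for CCL20, the latter without empty-vector replicate 3, and between 0.0022 and 0.047 for CCL2. Depth limits CXCL2 and CXCL3, with at most 126 counts in a library, and leaves CCL20 and CCL2 untested.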
